A study of Mus musculus with 20 samples.

Results

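Livers of mice that lacked Sirt2 and were also exposed to cold (Sirt2-/-/CE, 5 libraries) were compared with livers of wild-type mice that had neither the deletion nor the cold (Control, 5 libraries). These 10 libraries were all those of both groups, out of 20 in the series, and every expressed gene was described. All animals were on the C57BL/6 background, and the shared material was polyadenylated RNA of liver, so that both groups differed in genotype and in temperature at once. Per the study's methods, cold exposure was 4 °C for 3 h per day over 3 weeks, started in mice aged 5 weeks, and the knockout was made with CRISPR ribonucleoproteins aimed at exons 5 to 7 of Sirt2 in the whole animal. The remaining groups, CE (wild-type, cold, 5 libraries) and Sirt2-/- (knockout, no cold, 5 libraries), entered the fit and are named only where they show to which treatment a difference belonged. The labels do not name the animals, so each library was taken as 1 mouse and p-values measure the spread between these libraries. The hour of killing, the feeding state at killing and which sex was used were not given in the sources used here. The study states free access to food and water, and that the groups within an experiment shared their sex. In bulk liver, fewer cells of a type and less RNA per cell cannot be told apart.

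SIRT2 is an NAD-dependent deacetylase that removes acetyl groups from tubulin and from metabolic enzymes, among them the pyruvate kinase PKM2. The liver answers cold and feeding with programmes of fuel use that run through nuclear receptors, through insulin and glucagon signals and through the circadian clock, in which BMAL1 (Arntl) and CLOCK activate the Per, Cry and Nr1d genes and the output factors such as Dbp. Proteins that fold in the endoplasmic reticulum (ER) or the cytosol depend on chaperones, whose genes are switched on together when folding demand rises.

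The stretch that the knockout was aimed at is shown because the genotype rests on it. Whether it is absent from the transcripts cannot be read from counts per gene. In the transcript Sirt2-201 (GENCODE vM21, GRCm38, chromosome 7, plus strand), exon 5 spans 28776858 to 28776899, exon 6 spans 28776996 to 28777102 and exon 7 spans 28777191 to 28777247, which gives 206 bases in all. Exon 6, with 107 bases, is in capitals between exon 5 (42 bases) and exon 7 (57 bases).
Sirt2 exons 5 to 7: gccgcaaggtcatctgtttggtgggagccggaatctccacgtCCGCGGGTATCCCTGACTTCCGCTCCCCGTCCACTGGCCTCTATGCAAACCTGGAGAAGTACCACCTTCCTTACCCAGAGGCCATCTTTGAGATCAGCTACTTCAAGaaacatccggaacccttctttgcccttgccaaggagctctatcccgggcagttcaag

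The libraries held 44222098 to 53917339 counts in Control and 39085263 to 44030198 in Sirt2-/-/CE, so that every Control library was deeper. The difference had an exact permutation p of 0.0079, the smallest the 252 splits of 5 against 5 can give, and 0.0556 after adjustment over the 7 library measures. The shares of mitochondrially encoded genes (8.32% ± 0.742 against 8.04% ± 1.56, SD, n = 5 each), of Alb (9.57% ± 1.99 against 9.27% ± 2.59) and of the major urinary proteins (4.20% ± 3.41 against 2.12% ± 1.47) did not differ beyond their spread (exact permutation tests, adjusted p = 0.952, 0.952 and 0.630). The defining hepatocyte genes were present in every mouse, with Alb between 69141 and 135724 CPM, the counts scaled to a common library total. The skeletal muscle genes Ckm and Tnnt3 and the adipocyte gene Plin1 were at 0 in all 10 mice, and the pancreatic genes Cpa1, Prss2 and Pnlip stayed at or below 0.471 CPM, while the elastase gene Cela1 had 4.77 to 14.3 CPM in Control and 6.67 to 20.1 CPM in Sirt2-/-/CE. Ddx3y, a Y-linked gene, lay between 23.8 and 76.0 CPM and Xist at or below 0.137 CPM in all 10. On the first principal component (15.6% of the variance over 20 libraries), Sirt2-/-/CE mice 16 and 20 scored -78.6 and -41.5, while mice 17 to 19 scored 16.5 to 21.2 and the Control mice 10.5 to 27.9. Where leaving out both mice moved a log2 fold change named below by more than 1.5 times, the value without them is given too.

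A clock score, in which the mean log2 level of Arntl, Clock and Npas2 is taken from that of Ciart, Dbp, Nr1d2, Per3 and Tef, also separated the groups. It ranged from 1.33 to 3.36 in Control and from -4.69 to 0.865 in Sirt2-/-/CE, with no overlap. In CE it ranged from -4.52 to 2.42 and in Sirt2-/- from -6.48 to 2.17. The part of this score in the results below was not tested beyond a fit that included it as a covariate, in which 1 gene passed the threshold. In that fit the log2 fold change of Sirt2 was -0.89 (against -0.97), that of Rgs16 -3.82 (against -4.58), that of Slc45a3 1.5 (against 1.79) and that of Mus_musculus_newGene_3500 3.43 (against 3.21), and none of the 19 called genes changed sign. Genes that were not called moved more, and those values are given after the clock genes.

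Across the 15616 genes tested with edgeR's quasi-likelihood test, 19 passed a Benjamini-Hochberg adjusted p of 0.05 (0.122% of those tested). Of these, 9 rose (0.0576%) and 10 fell (0.064%) in Sirt2-/-/CE. At an unadjusted p under 0.05, 945 genes were higher (6.05%) and 799 lower (5.12%). The median log2 fold change of all genes was 0.03, and 54.1% of all genes lay above 0. The values of both groups did not overlap in 423 genes, 226 with higher values in Sirt2-/-/CE (1.45%) and 197 with lower values (1.26%). Of the 19 called genes, 18 showed no overlap. With libraries scaled by their size only, 69.2% of 13 calls were rises, against 47.4% of the 19, and the median of all genes moved to 0.10.

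The calls depended on single mice. No gene passed without Control mouse 1, Control mouse 3 or Sirt2-/-/CE mouse 19, with 1368, 1228 and 1888 genes at an unadjusted p under 0.05 in those fits. Only 3110082I17Rik passed without Control mouse 2, only Sirt2 without Sirt2-/-/CE mouse 16, and 4 genes without mouse 17. Without Control mouse 4, 67 genes passed, among them all 19. Sirt2 and 3110082I17Rik each passed in 6 of the 10 fits that left out 1 mouse, and no other called gene did so in more than 5. On the same 20 libraries, DESeq2 called 237 genes and limma voom with sample weights 340, which included 19 and 18 of the 19.

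**Figure D1:**
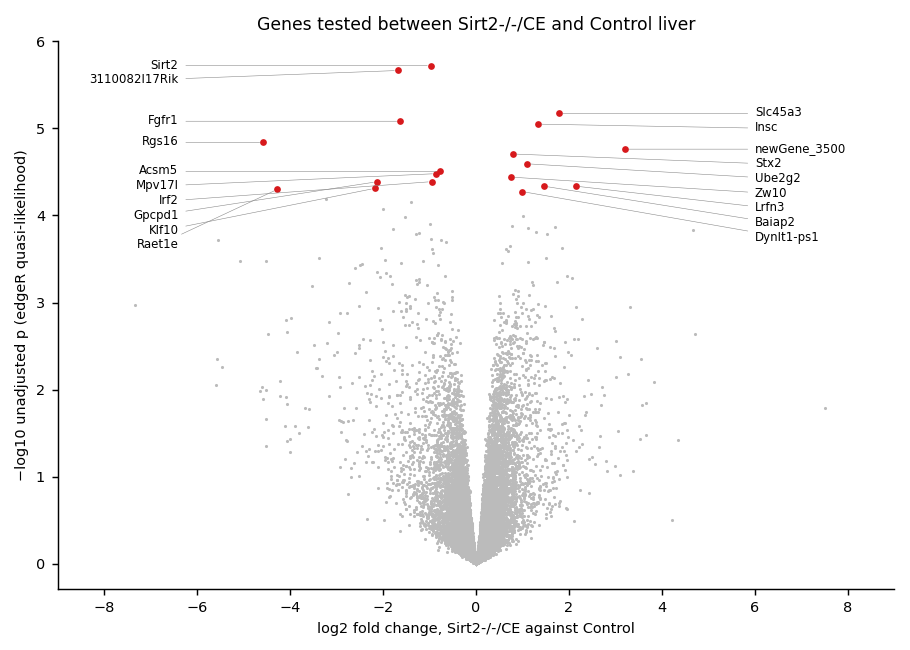
Each point is 1 of 15616 genes, with its log2 fold change between Sirt2-/-/CE and Control on the x axis and the negative log10 of its unadjusted p on the y axis. The 19 genes past the adjusted threshold are red and named, and Sirt2 stands highest on the left.

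The targeted gene was lower in every knockout mouse. Sirt2 (ENSMUSG00000015149, chromosome 7, 28766735 to 28788661, plus strand) had 42.4, 41.6, 44.5, 41.3 and 41.5 CPM in Control mice 1 to 5 and 27.5, 19.4, 20.8, 19 and 21.1 CPM in Sirt2-/-/CE mice 16 to 20. Every Control value lay above every knockout value. The log2 fold change was -0.97 ± 0.15 (SE), with an adjusted p of 0.0169 (edgeR). The count covers the whole gene, so transcripts without the targeted exons are counted too, and 0.510 of the Control mean remained. Sirt2 was as low in Sirt2-/- without cold (log2 fold change -0.94 ± 0.15) and not in CE (0.14 ± 0.15). None of the other 6 sirtuin genes passed, and the lowest adjusted p among them was 0.677 for Sirt7 (edgeR). Pkm, which codes for the pyruvate kinase that the study follows, had 12.6 to 38.7 CPM in Control and 17 to 42 CPM in Sirt2-/-/CE. The study measured the M2 form as protein and, by quantitative PCR, as mRNA, and reports opposite trends for them. The count used here covers the whole gene and not that form alone. The log2 fold change of Pkm, 0.07 ± 0.64, turned negative in 5 alternative fits (-0.40 without mice 16 and 20), so these libraries gave it no direction.

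Among the genes that fell, the steepest was Rgs16, a GTPase activator that shortens signalling from G-protein-coupled receptors. It had 159, 97.2, 178, 14.1 and 25.5 CPM in Control and 1.76, 3.55, 2.30, 2.12 and 10.1 CPM in Sirt2-/-/CE. The groups did not overlap, but Control mice 4 and 5 lay much closer to the knockout mice than Control mice 1 to 3 did. The log2 fold change was -4.58 ± 0.81 (adjusted p = 0.0378, edgeR).

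Klf10, a Krüppel-like transcription factor, had a similar layout. It had 38.1, 45.5, 99.1, 17 and 8.66 CPM in Control and 7.75 to 10.7 CPM in Sirt2-/-/CE, and it was the one called gene whose groups overlapped, through Control mouse 5 (log2 fold change -2.18 ± 0.42, adjusted p = 0.0435, edgeR). Raet1e, a ligand of the natural killer receptor NKG2D, had 4.49, 5.12, 7.77, 0.826 and 0.828 CPM in Control and 0.00 to 0.452 CPM in Sirt2-/-/CE (log2 fold change -4.27 ± 0.83). Its value is uncertain, since the near-identical Raet1d held 58.8% to 100% of the counts of the pair. Gpcpd1, a glycerophosphodiesterase that releases choline from glycerophosphocholine, had 165 to 669 CPM in Control and 41.4 to 104 CPM in Sirt2-/-/CE, with the 669 in Control mouse 3. Its log2 fold change was -2.13 ± 0.41, and -1.61 at the smallest when 1 mouse was left out.

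The other genes that fell were steadier among the Control mice. 3110082I17Rik, an uncharacterised protein-coding gene on chromosome 5, had 9.99, 7.45, 14.4, 6.84 and 9 CPM in Control and 3.08, 3.12, 1.78, 3.77 and 3.12 CPM in Sirt2-/-/CE (log2 fold change -1.68 ± 0.26, adjusted p = 0.0169, edgeR). It was the 1 gene that passed with the clock score as a covariate, at -1.87. Of its exon bases, 12.5% overlap C130050O18Rik on the other strand, and without strand such reads cannot be told apart. Fgfr1, a receptor of fibroblast growth factors, had 9.23 to 15.7 CPM in Control and 2.73 to 5.73 CPM in Sirt2-/-/CE (-1.63 ± 0.27, adjusted p = 0.0279, edgeR). Irf2, an interferon regulatory factor that competes with IRF1, had 40.7 to 60.4 against 18.3 to 34.6 CPM (-0.95 ± 0.18). Mpv17l, a membrane protein of peroxisomes and mitochondria, had 29.6 to 40.1 against 14.1 to 23.1 CPM (-0.86 ± 0.16). Acsm5, a medium-chain acyl-CoA synthetase, had 131 to 173 against 77.7 to 96.8 CPM (-0.78 ± 0.15). These 3 had an adjusted p of 0.0435 each (edgeR), as had Gpcpd1 and Raet1e.

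Of the genes that rose, Slc45a3 had the lowest p. It belongs to a family of proton-coupled sugar transporters and had 8.45, 8.49, 8.31, 15.3 and 11.6 CPM in Control and 38.9, 45.4, 17.1, 44.9 and 33.8 CPM in Sirt2-/-/CE. Mouse 18 lay close to the highest Control mouse and the other 4 at more than 2 times its level. The log2 fold change was 1.79 ± 0.30 (adjusted p = 0.0279, edgeR). Insc, an adaptor that orients the mitotic spindle, had 6.37 to 14.4 CPM in Control and 16.2 to 31.1 CPM in Sirt2-/-/CE (1.33 ± 0.22, adjusted p = 0.0279, edgeR).

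Ube2g2, a ubiquitin-conjugating enzyme of ER-associated degradation, had 25.5 to 41.1 CPM in Control and 100, 70.8, 47.3, 51.9 and 67.9 CPM in Sirt2-/-/CE (1.09 ± 0.20, adjusted p = 0.0435, edgeR). Stx2, a syntaxin that drives fusion of vesicles with the plasma membrane, had 6.34 to 10.9 against 12.7 to 15.6 CPM (0.79 ± 0.14, adjusted p = 0.0384, edgeR). Zw10, a kinetochore protein that also tethers vesicles between ER and Golgi, had 8.08 to 11.2 against 12.5 to 19.6 CPM (0.75 ± 0.14). In all 3 genes every Sirt2-/-/CE mouse lay above every Control mouse.

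Baiap2, a scaffold of the actin skeleton known as an insulin receptor substrate, had 5.25 to 13.2 CPM in Control and 19.5 to 38.5 CPM in Sirt2-/-/CE (1.47 ± 0.28). Lrfn3, an adhesion protein with leucine-rich repeats, had 0.972 to 4.38 against 5.62 to 11.97 CPM (2.16 ± 0.42). The predicted gene Mus_musculus_newGene_3500, which has no position in the annotation, had 0.262, 0.446, 0.493, 2.60 and 0.470 CPM in Control and 16.6, 8.07, 2.81, 5.43 and 6.84 CPM in Sirt2-/-/CE (3.21 ± 0.57). The pseudogene Dynlt1-ps1 had 1.44 to 2.17 against 2.71 to 4.72 CPM (1.00 ± 0.19), but 4 near-identical Dynlt1 genes held 80.3% to 89.9% of the counts of that family, so its share of reads is uncertain. Per transcript length, the called genes ranged in Sirt2-/-/CE from a mean of 0.118 FPKM for Raet1e to 32.3 FPKM for Ube2g2.

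**Figure D2:**
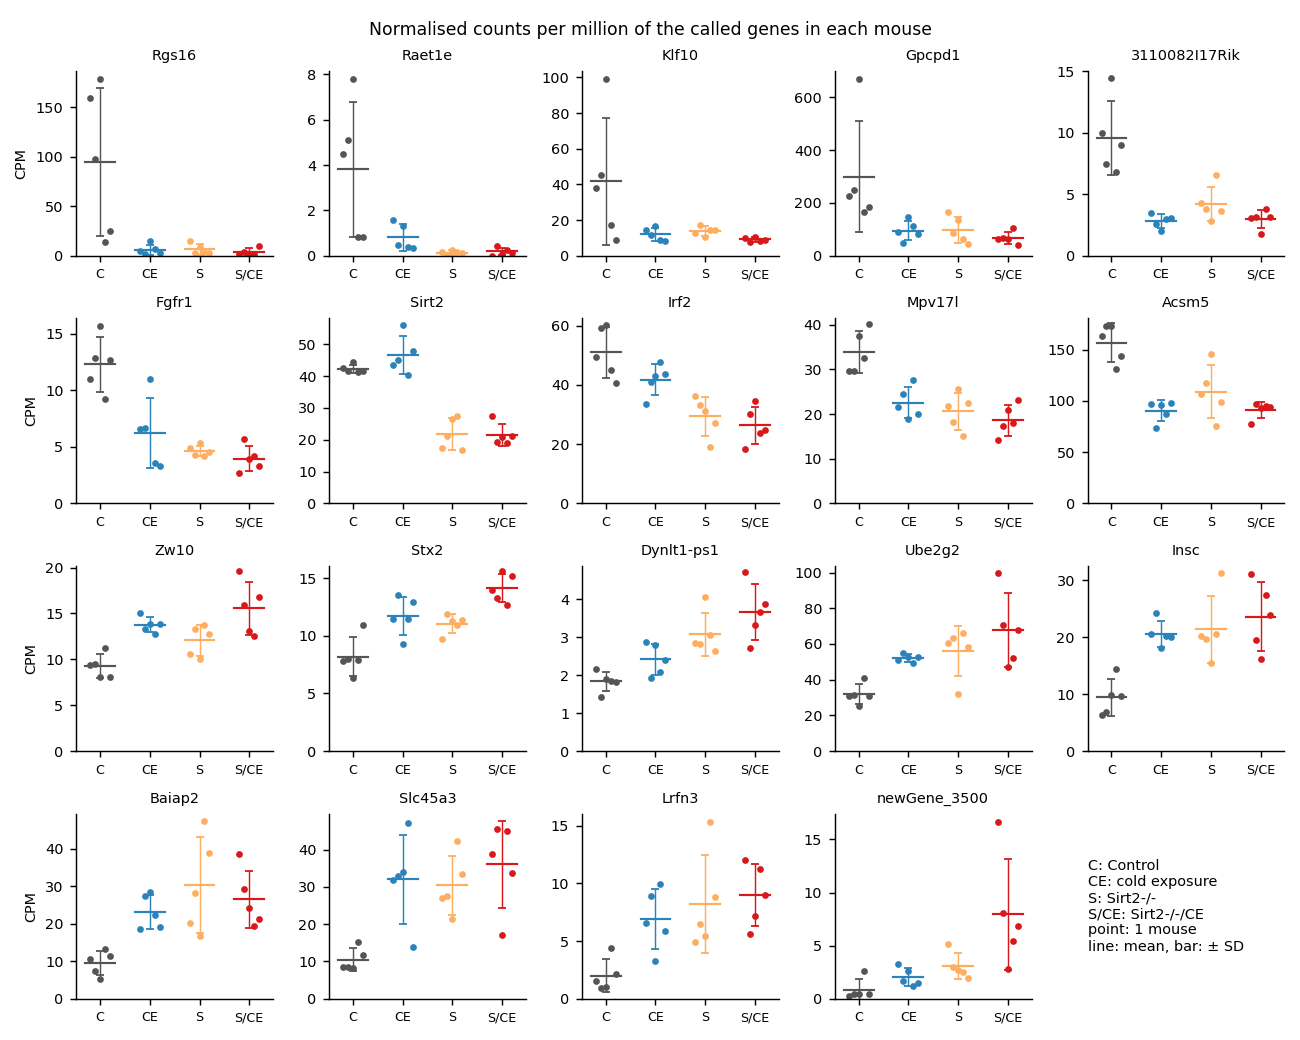
Each panel is 1 of the 19 called genes and each point 1 mouse, with normalised CPM on the y axis and the 4 groups on the x axis. Lines are means and bars SD (n = 5). In Rgs16, Raet1e and Klf10 the Control mean is carried by 3 mice, while in Sirt2 and Acsm5 the Control mice lie close together.

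The single treatments showed to which factor a change belonged only in part. Their contrasts share the Control mice, so the values are given side by side and no likeness is read from them. Sirt2 and Irf2 were the 2 called genes whose fold changes under cold alone were smallest in size (Irf2 -0.80 ± 0.18 in Sirt2-/-, -0.29 ± 0.18 in CE). Rgs16 had -3.89 ± 0.78 in Sirt2-/- and -3.97 ± 0.78 in CE, beside -4.58 with both. Slc45a3 had 1.54 ± 0.29 and 1.62 ± 0.29, beside 1.79. Baiap2 had 1.66 ± 0.29 and 1.28 ± 0.28, beside 1.47. For these genes the fold change with both treatments was smaller than the sum of the single ones (-7.87, 3.16 and 2.94). Others lay nearer to their sums, such as Mus_musculus_newGene_3500 (3.21 and 3.08), Irf2 (-0.95 and -1.08) and Dynlt1-ps1 (1.00 and 1.14). Each sum holds the Control mean in both of its parts, so an extreme Control mean alone can bring a departure from the sum.

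The test of that departure, the interaction of genotype and cold, passed the threshold in no gene with edgeR (1303 at an unadjusted p under 0.05), in none with limma voom and in 41 with DESeq2. Among the 19 called genes the lowest adjusted p was 0.342, for Baiap2 (edgeR). The direct comparison of Sirt2-/-/CE with Sirt2-/- found no gene past the threshold (edgeR, 1132 at an unadjusted p under 0.05). That of Sirt2-/-/CE with CE found 2, Sirt2 (log2 fold change -1.11) and Atp11a, a phospholipid flippase (-2.10 ± 0.32, adjusted p = 0.0163, edgeR). Atp11a had 11.53 to 19.3 CPM in Control and 2.33 to 10.1 CPM in Sirt2-/-/CE, and missed the threshold against Control (-1.28 ± 0.31, adjusted p = 0.129, edgeR).

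**Figure D3:**
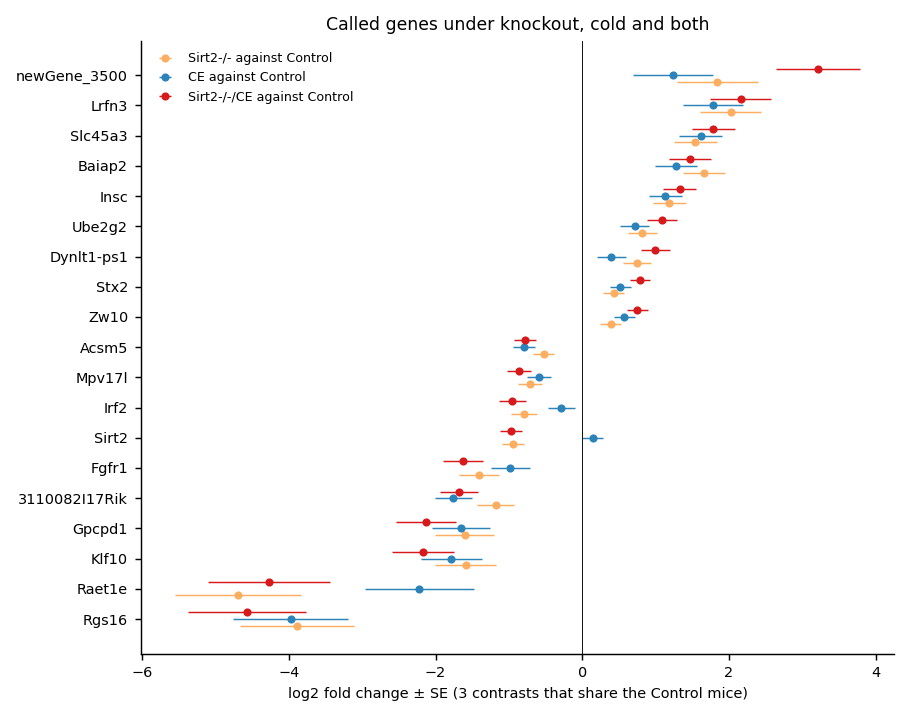
Points are log2 fold changes against Control with their SE as bars, for Sirt2-/- (orange), CE (blue) and Sirt2-/-/CE (red), with 1 row per called gene. The 3 contrasts share the 5 Control mice. For Sirt2 the blue point lies near 0 (0.14 ± 0.15).

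Just outside the threshold lay Scara5, a ferritin receptor, with 10.2 to 41.9 CPM in Control and 0.724 to 5.66 CPM in Sirt2-/-/CE (log2 fold change -3.24 ± 0.64, adjusted p = 0.0505, edgeR). Among uncalled genes whose groups did not overlap, whose mean reached 1 FPKM and whose unadjusted p was under 0.01, the next largest decreases were those of Il1rn, the interleukin 1 receptor antagonist (-2.45 ± 0.57, and -1.37 without Control mouse 3), the immunoglobulin constant region Ighg1 (-2.37 ± 0.60), the antisense RNA Gm14097 (-2.11 ± 0.56) and the lectin receptor Clec2h (-2.06 ± 0.56). The largest increases of this kind were Mus_musculus_newGene_1362 (4.66 ± 1.00), Mus_musculus_newGene_678 (3.27 ± 1.08), Arntl (3.0 ± 0.88), RP23-131N18.1 (2.20 ± 0.64) and Tubb2a (1.96 ± 0.47). None of these passed, with an adjusted p of 0.0756 to 0.241 (edgeR). Control mouse 4 decided this for 3 of them. Without it the log2 fold change was 5.79 for Mus_musculus_newGene_1362, 6.68 for Mus_musculus_newGene_678 and 3.04 for RP23-131N18.1, each past the threshold (adjusted p = 0.0305, 0.0055 and 0.0427, edgeR). Scara5 passed without Sirt2-/-/CE mouse 18 (-3.79, adjusted p = 0.0415, edgeR).

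No core clock gene passed the threshold, and Arntl, Clock, Npas2 and Per3, described next, are part of the clock score above, as is Dbp. Of the 12 core clock genes, 4 had an unadjusted p under 0.05 and were higher (33.3%, against 6.05% of all genes), and 5 lay below 0. The list's median was 0.05, with -0.13 without mouse 17, 0.20 without mice 16 and 20 and 0.66 with the clock score as a covariate. Arntl, the activator of the loop, had 0.437, 0.851, 0.123, 3.28 and 0.537 CPM in Control and 8.07, 5.90, 5.37, 15.5 and 7.20 CPM in Sirt2-/-/CE (3.0 ± 0.88, adjusted p = 0.185, edgeR). Every Sirt2-/-/CE mouse lay above every Control mouse, and Control mouse 4 stood above the other 4.

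Cry1, a repressor of the loop, had 5.98 to 10.96 against 10.1 to 33.3 CPM (1.32 ± 0.42), and Clock, the partner of BMAL1, had 9.07 to 23.2 against 10.5 to 55.1 CPM (1.18 ± 0.43). Npas2, a relative of Clock, is the fourth, named here after its values were seen, and rested on mouse 19 with 3.52 CPM while the other 9 mice stayed at or below 0.528. Per3, an inhibitor in the loop and part of the clock score, named after its values were seen, had 24.8 to 29.9 against 0.845 to 21.4 CPM, with no overlap (-1.23 ± 0.87). Dbp, an output factor that binds D-box sites, moved the other way, with 71.6 to 98.98 CPM in Control and 13, 21.8, 48.1, 2.46 and 15.1 CPM in Sirt2-/-/CE. Its groups did not overlap, yet its log2 fold change of -2.11 ± 0.98 had an adjusted p of 0.432 (edgeR). Bhlhe40, a repressor of the same system, had 73.0 to 346 against 62.2 to 114 CPM (-1.15 ± 0.44). The 7 output factors had a median of -0.76, of -1.18 without mouse 17 and of 0.19 with the clock score as a covariate, which holds 3 of them (Dbp, Tef and Ciart).

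With the clock score as a covariate, the log2 fold change of several uncalled genes moved by more than 1.5 times. Among the clock genes, Arntl went from 3.0 to 1.62, Clock from 1.18 to 0.68, Bhlhe40 from -1.15 to -0.36, and Dbp (-2.11 to 0.31), Per3 (-1.23 to 0.71) and Npas2 (4.33 to -0.99) changed sign, all but Bhlhe40 being part of the score. Among genes described elsewhere in the text, those with higher values went to 1.10 for Tubb2a, 0.68 for Insig2, 0.37 for Agpat2, 0.23 for Bpgm, 0.48 for Pdk4, 0.49 for Gldc, 1.17 for Elovl3 and 1.05 for Cdkn1a. Those with lower values went to -1.07 for Gm14097, -0.38 for Lpcat3, -1.21 for Sik1, -0.35 for Pdk1, -0.60 for Nmrk1, -0.62 for Slc38a3, -0.11 for Slc38a4, -0.36 for Slc39a14 and -0.64 for Igj.

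RefSeq promoter windows (GRCm38.p6, 250 bases before to 50 after the start) were read for the clock's own motifs on both strands, namely the E-box CACGTG, the D-box TTATGNAA, the Rev-erb/ROR core TAGGTCA and the cAMP response element TGACGTCA. Windows were found for 12 of the 19 called genes, 10 of the 12 core clock genes and 6 of the 7 output factors. The E-box was in 2 of the 15 windows of called genes (13.3%), against 7.15% of all 32851 windows, and the Rev-erb/ROR core in 2 of 15 (13.3%), against 2.61%. Neither the D-box (3.38% of all windows) nor the cAMP response element (1.79%) was in any of the 15. Among the 7 windows of output factors, 4 held an E-box (57.1%), and of the 14 windows of core clock genes 2 held one (14.3%). The windows of Slc45a3 and Stx2 that hold the core, and those of 3110082I17Rik and Acsm5 that hold the E-box, are the 4 among called genes with a match. Below are 2 of them, those of the gene with the lowest p in each direction after Sirt2, and the window of Arntl, in which the core is a letter match too. The motif is in capitals. The windows lie at chr1:131970359-131970658 (plus strand), chr5:139460485-139460784 (minus strand) and chr7:113207261-113207560 (plus strand). Slc45a3 starts at 131962967, so its printed window lies inside the gene. Its other window, at the start of the gene (chr1:131962665-131962964), holds no motif. The Acsm5 window with the E-box (chr7:119526015-119526314) lies inside its gene too, which starts at 119519463.
Slc45a3: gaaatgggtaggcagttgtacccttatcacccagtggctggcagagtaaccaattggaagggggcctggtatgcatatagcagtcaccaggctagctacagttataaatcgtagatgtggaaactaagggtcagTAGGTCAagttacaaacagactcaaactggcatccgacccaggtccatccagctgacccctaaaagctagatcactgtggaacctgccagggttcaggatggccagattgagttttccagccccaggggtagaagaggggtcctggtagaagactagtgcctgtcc
3110082I17Rik: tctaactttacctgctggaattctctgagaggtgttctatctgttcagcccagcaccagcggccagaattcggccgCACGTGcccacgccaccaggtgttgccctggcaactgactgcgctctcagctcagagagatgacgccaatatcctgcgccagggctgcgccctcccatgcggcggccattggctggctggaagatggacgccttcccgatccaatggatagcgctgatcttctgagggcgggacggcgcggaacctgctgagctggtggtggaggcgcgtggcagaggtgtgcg
Arntl: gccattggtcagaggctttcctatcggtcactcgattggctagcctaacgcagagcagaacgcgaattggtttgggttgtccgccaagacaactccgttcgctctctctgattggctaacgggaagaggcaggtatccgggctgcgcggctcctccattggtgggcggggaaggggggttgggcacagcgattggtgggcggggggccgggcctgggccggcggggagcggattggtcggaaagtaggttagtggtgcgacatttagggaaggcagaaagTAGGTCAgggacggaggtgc

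Chaperones of the ER were higher as a group of values. Of the 28 genes of the unfolded protein response and of ER folding, 22 had a log2 fold change above 0 and 13 an unadjusted p under 0.05 in that direction (46.4%, against 6.05% of all genes). None passed the adjusted threshold. The median was 0.39, against 0.03 over all genes, and 0.47 without Sirt2-/-/CE mice 16 and 20. Without Control mouse 3 it was 0.36, and 11 of the 28 were higher at an unadjusted p under 0.05 (4.25% of all genes in that fit). Creld2, a secreted protein of ER stress, had 25.7, 32.2, 13.9, 42.9 and 24 CPM in Control and 233, 149, 63.6, 39.9 and 95.3 CPM in Sirt2-/-/CE (2.07 ± 0.50, adjusted p = 0.126, edgeR). Mouse 19 lay inside the Control range and the other 4 above it.

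Sdf2l1, a cofactor of the chaperone BiP, had 8.73 to 30.6 CPM in Control and 30.8 to 89.0 CPM in Sirt2-/-/CE (1.48 ± 0.39). Hyou1, an ER chaperone of the HSP70 family, had 44.8 to 169 against 190 to 410 CPM (1.26 ± 0.35). Both showed no overlap and had an adjusted p of 0.155 and 0.162 (edgeR). In 2 members the unadjusted p was under 0.05 with lower values, Xbp1 (-0.60 ± 0.26), the transcription factor that is spliced under ER stress, and Ppp1r15a (-0.82 ± 0.37), a phosphatase subunit that restores translation. Both are named after their values were seen. In Sirt2-/- alone Creld2, Sdf2l1 and Hyou1 rose (log2 fold changes of 2.25, 1.80 and 1.60, adjusted p = 0.0408, 0.0407 and 0.0407, edgeR), and in CE alone they had 1.44, 1.45 and 1.11 with an adjusted p of 0.193 or more.

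Cytosolic heat shock genes were higher too, but not in every knockout mouse. Of 19 genes of this list, 16 had a log2 fold change above 0, 10 with an unadjusted p under 0.05 (52.6%), and the median was 0.69. Without mice 16 and 20 the median was 0.38 and 4 of the 19 were higher at such a p (4.96% of all genes in that fit). Hsp90aa1, the inducible cytosolic HSP90, had 95.8, 129, 88.2, 266 and 113 CPM in Control and 468, 448, 222, 159 and 366 CPM in Sirt2-/-/CE (1.26 ± 0.37, adjusted p = 0.185, edgeR). Hspa1b, an inducible HSP70, had 4.05 to 26.6 against 20.3 to 150 CPM (2.04 ± 0.63), with mice 16 and 17 far above the rest. It is nearly identical to Hspa1a, which with Gm20481 held 4.49% to 34.1% of their joint counts.

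The cold-inducible RNA-binding protein gene Cirbp, on the same list, had the opposite sign, with 6.55 to 18.2 CPM in Control and 3.13 to 8.91 CPM in Sirt2-/-/CE (-1.10 ± 0.34, adjusted p = 0.204, edgeR). The other member with lower values at an unadjusted p under 0.05 was the splicing factor Srsf5 (-0.86), named after its value was seen.

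No gene passed among the immediate early genes, many of them transcription factors that respond within minutes to growth signals and stress. Of 24, 23 had a log2 fold change below 0 and 8 an unadjusted p under 0.05 (33.3%, against 5.12% of all genes), with a median of -1.0. This rested in part on Control mouse 3. Without it the median was -0.48 and 1 of the 24 was lower at such a p (3.52% of all genes in that fit). Egr1 had 6.35, 7.05, 21.7, 1.18 and 9.04 CPM in Control and 1.54, 1.59, 0.792, 2.27 and 0.967 CPM in Sirt2-/-/CE (-2.66 ± 0.91). Control mouse 4 lay among the knockout mice and the other 4 above them. Btg2, which slows cell division, had 195 CPM in Control mouse 3, 8.14 to 16 CPM in the other Control mice and 6.60 to 21.6 CPM in Sirt2-/-/CE (-2.19 ± 0.73, and -0.26 without that mouse). Fosl2 had 5.62 to 27.0 against 4.62 to 6.31 CPM (-1.09 ± 0.36, and -0.53 without Control mouse 3). The adjusted p of the 3 was 0.242 to 0.259 (edgeR).

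**Figure D4:**
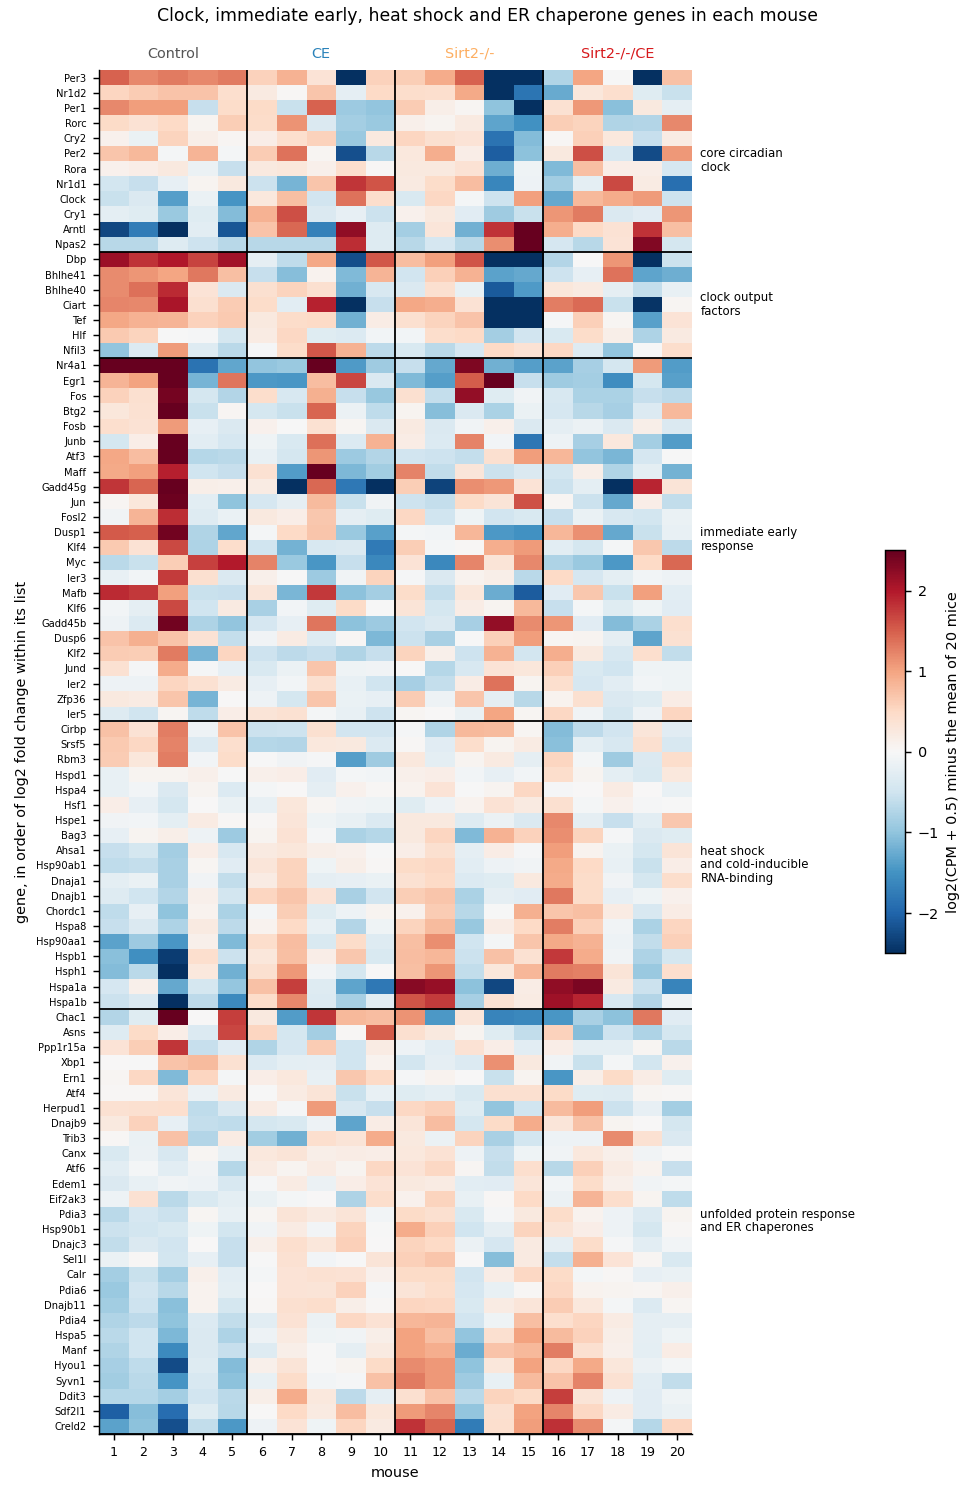
Rows are the tested genes of 5 lists in order of their log2 fold change, columns are the 20 mice by group, and colour is log2(CPM + 0.5) minus the gene's mean over all mice. Control mouse 3 is red over most immediate early genes and blue over the lowest rows of the ER chaperones, mice 9, 14, 15 and 19 share high Arntl and low Dbp, and mice 16 and 17 are red over the heat shock genes.

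Acute-phase and metal-binding genes rested on 1 mouse. Saa2, a serum amyloid, had 793 CPM in Control mouse 3, 5.31 to 15.2 CPM in the other Control mice and 3.69 to 13.6 CPM in Sirt2-/-/CE. Its log2 fold change went from -4.48 ± 1.29 to -0.36 without that mouse. The reads of Saa1 and Saa2 are hard to separate, since their transcripts match over 2448 bases, and Saa1 had 848 CPM in the same mouse (-2.94 ± 0.98, and -0.17 without it). The metallothioneins Mt1 (-2.90 ± 1.25) and Mt2 (-3.80 ± 1.64, and -5.82 without mice 16 and 20) and the siderophore binder Lcn2 (-2.87 ± 1.17) reversed their sign without Control mouse 3, to 0.87, 1.82 and 0.80. None of the 23 acute-phase genes passed, and their median of -0.23 became 0.08, and -0.50 without mice 16 and 20.

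No gene of sugar sensing passed the threshold. Of 8 genes that follow the glucose-responsive factor ChREBP or handle fructose, 4 had an unadjusted p under 0.05 and lower values (50%, against 5.12%), 2 lay above 0, the median was -0.47, and it was -0.40 without Control mouse 3, -0.59 without mice 16 and 20 and -0.30 with the clock score as a covariate. Slc2a5, the fructose transporter GLUT5, had 6.23, 10, 5.45, 5.06 and 10.9 CPM in Control and 2.33, 2.56, 5.18, 2.78 and 2.95 CPM in Sirt2-/-/CE (-1.25 ± 0.34, adjusted p = 0.156, edgeR). Txnip, an arrestin that limits glucose uptake, had 32.6 to 351 against 38.2 to 46.0 CPM (-1.57 ± 0.43, and -0.78 without Control mouse 3), with Control mice 4 and 5 at 32.6 and 47.3 CPM beside the knockout mice. Arrdc4, its relative, had 5.62 to 15.3 against 5.19 to 8.40 CPM (-0.80 ± 0.26). The fourth, named after its value was seen, was the glucose transporter Slc2a2 (-0.69).

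Glycolysis gave 18 of 23 genes above 0 and a median of 0.29, which was -0.07 without mice 16 and 20. Pklr, the liver pyruvate kinase and a ChREBP target, had 144 to 404 CPM in Control and 69.9 to 283 CPM in Sirt2-/-/CE (-0.85 ± 0.33, adjusted p = 0.306, edgeR, and -1.28 without mouse 20). Bpgm (0.37 ± 0.15) and Pgam1 (0.29 ± 0.12, and 0.19 without mice 16 and 20), both phosphoglycerate mutases, were the 2 with an unadjusted p under 0.05 and higher values (8.70% of the list, near the 6.05% of all genes). At the entry to the tricarboxylic acid cycle, the pyruvate dehydrogenase kinases had opposite signs, Pdk1 at -0.69 ± 0.24 and Pdk4, the kinase of fasting, at 0.99 ± 0.45 (0.65 without mouse 19). Idh3a, a subunit of isocitrate dehydrogenase, had 0.48 ± 0.18, and 0.23 without mice 16 and 20.

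Of the 18 genes of gluconeogenesis and fasting, Irs2, the insulin receptor substrate that hepatocytes induce on fasting, had the lowest p. It had 32.9, 38.4, 50.5, 3.41 and 2.62 CPM in Control and 0.546, 2.20, 4.92, 6.03 and 3.14 CPM in Sirt2-/-/CE (-2.92 ± 0.78, adjusted p = 0.156, edgeR). Sik1, a kinase induced by cAMP, had 94.1, 96.5, 123, 14.4 and 10.3 CPM in Control and 10.7 to 22.3 CPM in Sirt2-/-/CE (-1.94 ± 0.61). In both genes Control mice 4 and 5 lay within or near the range of the knockout mice and Control mice 1 to 3 above it, the same layout as in Rgs16 and Raet1e. Ppp1r3c, which targets a phosphatase to glycogen, had 0.97 ± 0.37 (0.60 without mouse 18), and Phka2, a subunit of the kinase that activates glycogen phosphorylase, had -0.55 ± 0.16.

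All 6 Cyp4a genes, which hydroxylate the far end of fatty acids and some of which follow PPARα, had a log2 fold change above 0. Their median of 0.63 was smaller than the SD between mice (0.77). Without Control mouse 3 it was 0.56, and 5 of the 6 lay above 0. Cyp4a14 had 296, 269, 423, 49.6 and 199 CPM in Control and 1344, 732, 432, 939 and 598 CPM in Sirt2-/-/CE, with no overlap (1.71 ± 0.49, adjusted p = 0.181, edgeR), and Cyp4a31 had 8.61 to 21.3 against 22.1 to 49.5 CPM (1.22 ± 0.36). In Sirt2-/- without cold both passed (2.97 and 1.73, adjusted p = 0.0199 and 0.0352, edgeR), and in CE they had 0.38 and 0.82. Of the joint counts of Cyp4a31 and its near-identical relatives Cyp4a10 and Cyp4a32, 93.5% or more came from the relatives, so its own share is uncertain. Of 36 genes of fatty acid oxidation and ketogenesis, 28 lay above 0 with a median of 0.12 (-0.11 without mice 16 and 20, and 0.27 with the clock score as a covariate). At an unadjusted p under 0.05, 3 of the 36 were higher (8.33%, near the 6.05% of all genes) and 0 lower. The 3 were Cpt2, which reforms acyl-CoA inside mitochondria (0.49 ± 0.14, and 0.31 without both mice), Acot1 (0.91 ± 0.36, and 0.45) and Vnn1 (0.76 ± 0.34). Plin5, a lipid droplet coat, had 25.4 to 45.2 against 40.1 to 126 CPM (1.09 ± 0.32, and 0.66 without both mice).

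Of 19 genes of de novo lipogenesis, 14 lay below 0 (median -0.21, with -0.39 without mice 16 and 20 and -0.07 with the clock score as a covariate). At an unadjusted p under 0.05, 1 of the 19 was lower and 1 higher (5.26% each, against 5.12% and 6.05% of all genes). These were Acss2, which activates acetate, at -0.62 ± 0.28 and Agpat2 at 0.62 ± 0.25 (0.23 without mice 16 and 20). Of 26 sterol genes, 1 was higher (3.85%) and 2 were lower (7.69%) at an unadjusted p under 0.05. In this list 19 genes lay below 0 (median -0.25). That median was 0.19 with the clock score as a covariate, -0.38 without Control mouse 3 and -0.04 without Control mouse 5. Insig2, which holds the sterol sensor in the ER, had 43.1 to 85.0 against 93.4 to 402 CPM (1.62 ± 0.44, adjusted p = 0.160, edgeR), while Sc5d, a late enzyme of cholesterol synthesis, had 403 to 507 against 172 to 357 CPM (-0.65 ± 0.23). Both showed no overlap. In bile acid control, the receptor gene Nr1h4 (FXR) had -0.58 ± 0.18 and its target Nr0b2 (SHP) 1.08 ± 0.35. Among xenobiotic genes Cyp3a11 had 2067 to 5130 against 4640 to 6268 CPM (0.68 ± 0.28), Cyp2j6 -0.51 ± 0.16 and Cyp2c38 0.70 ± 0.29 (0.18 without mice 16 and 20).

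Of 45 genes of amino acid uptake and breakdown, 2 were higher and 2 lower at an unadjusted p under 0.05 (4.44% each, against 6.05% and 5.12% of all genes). Slc38a3, the glutamine transporter SNAT3, had 1974, 2046, 2951, 1597 and 1667 CPM in Control and 1003, 992, 1120, 834 and 1211 CPM in Sirt2-/-/CE, with no overlap (-0.99 ± 0.21, adjusted p = 0.0756, edgeR). It passed without Control mouse 4 (-1.07, adjusted p = 0.0342, edgeR), as did Txnip (-1.82, adjusted p = 0.0342, edgeR) and Hsp90aa1 (1.64, adjusted p = 0.0461, edgeR). Slc38a4 had 990 to 1725 against 696 to 990 CPM, with no overlap but with the ranges meeting at 990 (-0.50 ± 0.23). Gldc, of glycine cleavage, had 1.02 ± 0.31 and Slc25a15, the ornithine carrier of the urea cycle, 0.55 ± 0.17.

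The direction of the mitochondrial and ribosomal subunits depended on 2 mice, and their medians were smaller than the SD between mice (0.35, 0.33 and 0.41 for complex I, complexes II to V and the cytosolic ribosome). Of 36 nuclear subunits of respiratory complex I, 35 lay above 0, with a median of 0.18, and of 38 subunits of complexes II to V, 36 (median 0.16). Without mice 16 and 20, 0 of 36 and 0 of 38 lay above 0, with medians of -0.23 and -0.24. The 76 cytosolic ribosomal protein genes went from 71 above 0 (median 0.13) to 0 (median -0.36). None of these genes had an unadjusted p under 0.05 with all mice. Without mice 16 and 20, 26 of the 76 ribosomal protein genes, 7 of the 36 of complex I and 5 of the 38 of complexes II to V had such a p with lower values, against 5.46% of all genes in that fit. The 13 mitochondrially encoded genes had a median of -0.12 (-0.05 without mice 16 and 20), with 2 above 0.

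The list of tubulins, some of them SIRT2 substrates, and of acetyltransferase and deacetylase genes had a median of 0.52 over 15 genes. At an unadjusted p under 0.05, 8 were higher (53.3%, against 6.05% of all genes) and 1 was lower (6.67%, against 5.12%). Tubb2a had 18.4, 18.3, 25.3, 18.7 and 11.2 CPM in Control and 102, 44.5, 53.7, 90.3 and 67.0 CPM in Sirt2-/-/CE, with no overlap (1.96 ± 0.47, adjusted p = 0.123, edgeR). It passed in 3 of the alternative fits. Tuba8 had 1.80 ± 0.62 (0.74 without mice 16 and 20) and Tubg1 0.54 ± 0.19 (0.28 without them). Without both mice the median was 0.32 and 3 genes were higher at such a p.

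**Figure D5:**
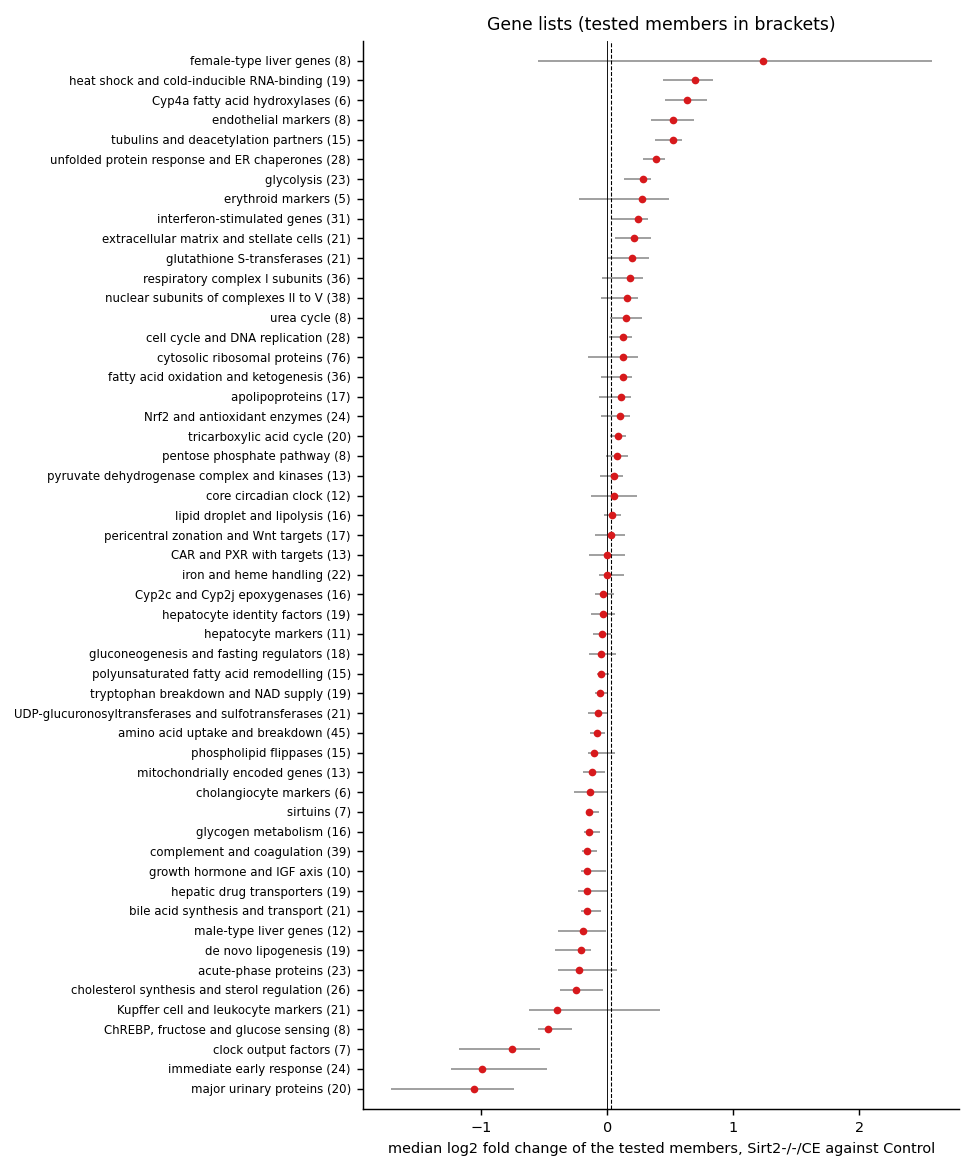
Red points are the median log2 fold changes of the gene lists with at least 5 tested members, and grey lines span the medians over 16 other settings, without the clock covariate and without the joint omission of mice 16 and 20. The dashed line marks the median of all genes. The heat shock, Cyp4a, endothelial, tubulin and ER chaperone lists lie above 0 and the immediate early, output factor and ChREBP lists below 0 along their whole lines, while the line of the female-type genes crosses 0.

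Genes that differ between the sexes varied most among mice. The 20 tested major urinary protein genes had a median of -1.06 (-0.62 without mice 16 and 20, and -1.72 without mouse 18), and Mup1 ranged from 13.4 to 2206 CPM in Control and from 0.411 to 273 CPM in Sirt2-/-/CE (-2.75 ± 1.12, adjusted p = 0.346, edgeR). The 8 female-type liver genes tested had a median of 1.24 that became -1.40 without mice 16 and 20 and 2.58 without Control mouse 3, and -0.55 without mouse 20 alone. The organic anion transporter gene Slc22a27, of the hepatic transporter list, had 0.263 to 4.86 against 0.217 to 35.3 CPM (2.27 ± 1.05, and -1.38 without mice 16 and 20). Of 12 male-type genes, 9 lay below 0 (median -0.19, with -0.39 without Control mouse 3 and 0.07 without mice 16 and 20). Elovl3, a male-type elongase and one of the 3 above 0, had 6.14 to 45.1 against 1.38 to 751 CPM (3.02 ± 1.01, and 1.74 without mouse 19). Igf1 had -0.30 ± 0.12 and Stat5a, which carries the growth hormone signal, 0.65 ± 0.23.

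Markers of other liver cells are given next. All 8 endothelial markers lay above 0, with a median of 0.52, 1 at an unadjusted p under 0.05 (Vwf, 0.50 ± 0.24), and their summed level ran from 53.9 to 226 CPM in Control and from 179 to 315 CPM in Sirt2-/-/CE. Col4a2, a basement membrane collagen of the matrix list, had 10.8 to 14.8 against 20.01 to 27.8 CPM, with no overlap (0.82 ± 0.30, adjusted p = 0.286, edgeR). The part of the endothelial share in this value was not tested. The Kupffer cell markers Clec4f (33.6 to 98.0 against 90.8 to 155 CPM, 0.92 ± 0.32) and Marco (1.10 ± 0.41) were higher, while Igj, of plasma cells, had -0.99 ± 0.37 (-0.49 without Control mouse 3). Of the 21 Kupffer and leukocyte markers tested, 9 lay above 0 (median -0.40, -0.62 without mouse 18, and 0.42 among genes with at least 10 counts in every library). Without Control mouse 3 the median was -0.12 and 10 lay above 0. Summed, they ran from 205 to 571 CPM in Control and from 420 to 678 CPM in Sirt2-/-/CE. Of 6 cholangiocyte markers tested, 3 lay above 0 and 3 below (median -0.14, and from -0.26 to 0.01 over 16 other settings), among the latter Spp1 (-0.82 ± 0.21) and Sox9 (-0.65 ± 0.30), and the summed level ran from 43.4 to 93.9 CPM in Control and from 28.8 to 47.7 CPM in Sirt2-/-/CE. Of the 8 adipose markers only Fabp4 was tested (4.28 to 7.57 against 7.75 to 15.3 CPM, 0.98 ± 0.35, and 0.56 without mice 16 and 20), which endothelial cells express too. None of these marker genes passed the adjusted threshold. Of 39 genes of complement and coagulation, 30 lay below 0 (median -0.16, with -0.08 without Control mouse 3 and -0.03 with the clock score as a covariate), among them the protease gene C1s1 (371 to 486 against 291 to 379 CPM, -0.29 ± 0.13). The genes of the C1q chains that Kupffer cells make, C1qa (0.70 ± 0.31, and 0.26 without mice 16 and 20) and C1qb (0.80 ± 0.33, and 0.36 without them), lay above 0.

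In the smaller lists, a few members had an unadjusted p under 0.05 and none passed. Interferon genes had a median of 0.24 (0.15 without mice 16 and 20, and 0.04 without mouse 20 alone), with Bst2 (0.58 ± 0.19, and 0.18 without mice 16 and 20) and Oasl2 (0.86 ± 0.35) higher and Psmb9 (-0.52 ± 0.23) lower. In iron handling, the importers Slc11a2 (0.42 ± 0.16, and 0.28 without mouse 17) and Tfrc (0.79 ± 0.33) were higher and Slc39a14 lower (-0.63 ± 0.27, and -0.25 without Control mouse 3). In NAD supply, Nmnat3 (-0.47 ± 0.19) and Nmrk1 (-0.90 ± 0.38, and -1.62 without mice 16 and 20), which make NAD from its precursors, were lower, and Nnt, which couples NADH to NADPH, was higher (0.44 ± 0.19, and 0.28 without Control mouse 3). Cdkn1a, the cell cycle inhibitor p21, had 0.932 to 8.31 against 2.999 to 24.5 CPM (2.26 ± 0.96), and Lpcat3, which loads polyunsaturated fatty acids onto phospholipids, had -0.59 ± 0.18.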

How the data were processed

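Liver RNA of 20 libraries in 4 groups of 5 had been enriched with oligo(dT) and primed with random hexamers per the labels. The authors deposited a table with a read count and an FPKM value per gene and library for 45306 genes, 1967 of them predicted new genes. The submitters' processing notes name the mouse build mm10. The aligner, the counting tool and its strand setting were not given in the sources used here. The deposited counts were unscaled whole numbers. 9 lines of the table named no gene and were left out, and all 40 value columns were matched to libraries by name. Positions came from GENCODE vM21 (GRCm38), which held 14838 of 14941 Ensembl identifiers tested.

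Counts of all 20 libraries were fitted with edgeR 4.0.16 (quasi-likelihood test, TMM scaling, group as the only term) after the expression filter filterByExpr (count at least 10, total at least 15), which kept 15616 genes and at least 99.941% of each library's counts. P-values were adjusted by Benjamini and Hochberg over all tested genes, with a threshold of 0.05. CPM values are TMM-scaled, and marker and library sums are scaled by total counts. The SE of a log2 fold change was its size divided by the square root of F. Library measures were compared with exact two-sided permutation tests. FPKM served for levels between genes and, as log2(FPKM + 1), for 1 alternative. Alternatives were DESeq2 1.42.0, limma 3.58.1 (voom with sample weights), other scalings and filters, a fit of both groups alone, the clock score as a covariate and leaving out each mouse in turn. Leaving out mice 16 and 20 together was added after seeing the data. Scripts were tested on simulated data. Near-identical transcripts were sought with BLAST+ 2.17.0 (95% identity over 150 bases).

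The members, the 56 gene lists and the tests were chosen with earlier results of these data known, so no list is tested and each is described by counts and medians. Named genes were Sirt2, Pkm, the called genes, the 5 largest changes per direction among genes not called with an unadjusted p under 0.01, at least 1 FPKM and no overlap, and at most 3 genes of a list with the lowest p, with exceptions marked in the text, and 1 gene the rule names is not reported here. Precision is set by 5 mice per group and by counting error at 39085263 to 53917339 counts per library among these 10.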

Additional observations from a re-analysis of the deposited data

Results flagged for a closer look

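In 260 groups of 5 values (123 named genes and 7 library measures in Control and in Sirt2-/-/CE), 20 had 1 mouse whose gap to its nearest neighbour exceeded Dixon's 95% critical value of 0.71 of the range. That is 7.69%, where chance flags about 1 in 20.

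Control mouse 3 was apart in 8 of them. It was the highest Control mouse for Mt1 (1075 CPM), Mt2 (841 CPM), Saa1 (848 CPM), Saa2 (793 CPM), Btg2 (195 CPM) and Il1rn (16.1 CPM), and the lowest for Nr0b2 (5.82 CPM) and Elovl3 (6.14 CPM). Control mouse 4 was the highest for Mus_musculus_newGene_3500 (2.60 CPM) and Mus_musculus_newGene_678 (6.88 CPM), and Control mouse 2 the lowest for Ugt1a9 (70.2 CPM).

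Sirt2-/-/CE mouse 16 was apart in 6. It was the highest of its group for Sirt2 itself (27.5 CPM) and the lowest for Acsm5 (77.7 CPM), Sc5d (172 CPM), Stard4 (52.2 CPM), Sox9 (1.02 CPM) and Vwf (6.01 CPM). Mouse 18 was the lowest for 3110082I17Rik (1.78 CPM), mouse 19 the lowest for Txnip (38.2 CPM) and mouse 20 the lowest for Mup1 (0.411 CPM).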

How the results depend on the processing

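The number of called genes, 19, was 237 with DESeq2, 340 with limma voom, 7 without a filter on low counts, 3 in a fit of both groups alone, 1 with the clock score as a covariate, 12 when a log2 change of 1 or more was also required and 5 without mice 16 and 20. Leaving out 1 mouse gave 0 to 67 calls, with 0 for Control mice 1 and 3 and mouse 19, 1 for Control mouse 2 and mouse 16, 4 for mouse 17, 10 for mouse 20 and 67 for Control mouse 4. The 237 and 340 calls included 19 and 18 of the 19, and the 5 included 1. The interaction went from 0 genes to 41 with DESeq2. The cause of these shifts was not tested. No called gene changed sign.

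Among the other genes, Pkm was -0.40 without mice 16 and 20 and -0.20 to 0.32 when 1 mouse was left out. Dbp was 0.31 with the clock score as a covariate. Slc22a27 was -0.16 with limma voom, -1.38 without mice 16 and 20 and -0.79 to 3.26 with 1 mouse left out. On the same omissions Mt1 ran from -3.71 to 0.87, Mt2 from -5.14 to 1.82 and Lcn2 from -3.64 to 0.80. Differences in library shares, in percent of counts, ran from -0.720 to 0.333 for mitochondrially encoded genes, from -1.41 to 0.148 for the 10 most abundant genes, from -1.37 to 0.528 for Alb and from -0.030 to 0.0291 for predicted new genes. No paired analysis was possible because the groups share no replicate numbers. The hour of collection is not given, every Sirt2-/-/CE library was shallower than every Control library, and the part of depth in the differences was not tested. With 5 mice per group, genes whose Control values spread widely gave wide errors.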
